A study of Mus musculus with 12 samples.

Results

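The muscle ankyrin repeat genes and their mechanical stress partners were followed across isolated muscle fibers and whole muscle of the mouse. The set holds 9 of the 55573 genes in the count table: Ankrd1, Ankrd2, Ankrd23, Csrp3, Mustn1, Rrad, Xirp1, Flnc and Des. The genes were chosen by symbol, with the differences between isolated fibers and whole muscle already known for some of them, so for these 9 genes every comparison with whole muscle is a description: calls are counted there, but they are no independent test. RNA came from the extensor digitorum longus (EDL), a fast hindlimb muscle, of C57BL/6 mice, with no other genotype or treatment named. The 12 libraries formed 4 groups of 3, made from 1 myofiber, from 5 pooled, from 20 pooled, or from the undissected muscle. Every library was prepared with SMART-Seq HT, which amplifies full-length cDNA from very small inputs. Single fibers were lysed straight into the buffer of that kit, whereas RNA of whole muscle was extracted with Trizol, and for the pools no method of their own is labelled. Isolation of the fiber and the way its RNA was obtained therefore cannot be told apart in single fibers. The labels give neither age nor sex, and they do not say whether the 3 libraries of a group came from separate animals, so a p-value here measures the spread between libraries, which may be technical.

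Ankrd1 (CARP), Ankrd2 and Ankrd23 (DARP) form the muscle ankyrin repeat protein family, which binds the spring region of titin in the sarcomere and can also enter the nucleus, where its members act on transcription. Stretch, injury and overload of striated muscle are known to raise several of them, Ankrd1 above all, which is abundant in heart and scarce in resting fast muscle. Csrp3 (muscle LIM protein), Xirp1 (Xin), Flnc (filamin C) and Des (desmin) belong to the Z-disc and to the links between sarcomere and membrane, Mustn1 is a small nuclear protein of the musculoskeletal system, and Rrad is a small GTPase that inhibits voltage-gated calcium channels.

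The libraries held between 4702823 and 27787120 counted reads. Levels below are CPM, the counts of a gene per 1000000 reads after scaling by TMM factors, which make the bulk of genes comparable between libraries. The factors ran from 0.522 to 1.60, except 2.95 in 20-fiber pool 2. That library had the lowest CPM of all 9 fiber libraries for each of the 9 genes. The 10 fast-fiber marker genes took between 4.50% and 21.5% of the reads, so muscle RNA was plentiful in every library. Of 1506 chemosensory receptor genes (smell, pheromone and taste), which muscle should not use, 2.32% to 26.7% had a read in whole muscle, single fibers and 5-fiber pool 3, but 58.0% to 97.3% had one in the 5 other pools. Set against the 99th percentile of receptor reads per kilobase in the same library, Csrp3 in 20-fiber pool 2 was the only member value that did not exceed it. Single fiber 2 and 5-fiber pool 3 stood nearer to whole muscle than the other fiber libraries, with a Spearman correlation to the whole muscle mean of 0.709 and 0.725 across genes, against 0.321 to 0.593. In bulk RNA, fewer cells of a type and less RNA per cell cannot be told apart.

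On GRCm38, with GENCODE vM21 annotation, Ankrd1 (ENSMUSG00000024803) lies on chromosome 19 from 36111961 to 36120099 on the minus strand, and Ankrd2 (ENSMUSG00000025172) lies 5.92 Mb away on the plus strand of the same chromosome, from 42036000 to 42045110. Ankrd23 (ENSMUSG00000067653) is on chromosome 1 from 36530188 to 36536883, minus strand. Mustn1 (ENSMUSG00000042485) is on chromosome 14 from 30879200 to 30881610, plus strand, and Rrad (ENSMUSG00000031880) on chromosome 8 from 104628070 to 104631327, minus strand. Csrp3 (ENSMUSG00000030470) is on chromosome 7 from 48830398 to 48848033, minus strand. Xirp1 (ENSMUSG00000079243) is on chromosome 9 from 120013755 to 120023598, minus strand, Flnc (ENSMUSG00000068699) on chromosome 6 from 29433256 to 29461883, plus strand, and Des (ENSMUSG00000026208) on chromosome 1 from 75360329 to 75368579, plus strand. All 9 are protein coding, and counts were summed over their exons. Ankrd23 shares 2109 of its exon bases (78.2%) with the predicted gene Gm42417 on the same strand. Gm42417 had 0 reads in all 12 libraries, so Ankrd23 reads may have been counted only from the 588 bases outside the overlap, and its level per kilobase is uncertain. Antisense genes overlap 141 exon bases of Rrad and 220 of Des. Whether counting used the strand is not given in the sources used here, and the antisense genes held 0.354% and 0.723% as many reads as Rrad and Des.

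Ankrd1 was the member with the widest range. Whole muscle held 7.51, 7.99 and 6.21 CPM, and the pools of 20 fibers held 131, 33.2 and 145 CPM. The pools of 5 stood at 2038, 379 and 389 CPM, and the single fibers at 8172, 213 and 4771 CPM. All 9 fiber libraries lay above all 3 whole muscle libraries. In CPM the group means ran from single fibers through pools of 5 and pools of 20 to whole muscle. Only single fibers and pools of 5 overlapped in CPM. Per read without TMM factors, single fibers overlapped the pools of 20 too. Per 10000 fast-fiber marker reads, single fiber 2 (7.19) and 5-fiber pool 3 (11.1) lay below the pools of 20 (11.5 to 19.5). By mean CPM per kilobase, Ankrd1 ranked 43 among protein-coding genes in single fibers and 5605 in whole muscle. Against whole muscle the log2 fold change was 9.23 (SE 1.37) in single fibers, 6.94 (SE 0.88) in pools of 5 and 4.12 (SE 0.59) in pools of 20. Without single fiber 2 the first of these was 9.78, without 5-fiber pool 3 the second was 7.41, and without 20-fiber pool 2 the third was 4.29. Markers of heart, where Ankrd1 is also abundant, summed to 5.45 to 20.0 CPM over 7 genes in every library, and Nppa was at 0 in 10 of the 12 libraries.

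Ankrd2, the family member known from slow fibers and from stretched muscle, followed another course. It stood at 60.7, 83.9 and 88.0 CPM in whole muscle, at 21.9, 25.7 and 7.57 CPM in single fibers, at 206, 496 and 93.7 CPM in pools of 5, and at 26.8, 6.35 and 92.4 CPM in pools of 20. The pools of 5 were the highest group and the single fibers the lowest, and neither overlapped whole muscle, whereas the pools of 20 spanned it. That the pools of 5 stood clear of whole muscle held in CPM only: per 10000 fast-fiber marker reads 5-fiber pool 3 was at 2.68, below whole muscle at 6.99 to 7.65, and without TMM factors the groups overlapped too. The log2 fold change against whole muscle was -2.15 (SE 0.41) in single fibers, 1.76 (SE 0.63) in pools of 5 and -0.63 (SE 0.66) in pools of 20.

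Ankrd23, whose protein also binds titin, was lower in every fiber library than in whole muscle. Its levels were 122, 135 and 124 CPM in whole muscle, 81.0, 99.5 and 44.3 CPM in single fibers, 28.7, 11.7 and 80.7 CPM in pools of 5, and 17.9, 3.68 and 13.9 CPM in pools of 20. Each fiber group overlapped its neighbour in the order single fibers, pools of 5, pools of 20. The log2 fold change against whole muscle was -0.83 (SE 0.29), -1.75 (SE 0.62) and -3.13 (SE 0.57) in that order. Counted per 10000 reads of the 10 fast-fiber marker genes, Ankrd23 was nearly level within the fibers, at 1.55 to 3.37 in all 9 libraries against 10.8 to 14.1 in whole muscle.

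**Figure D1:**
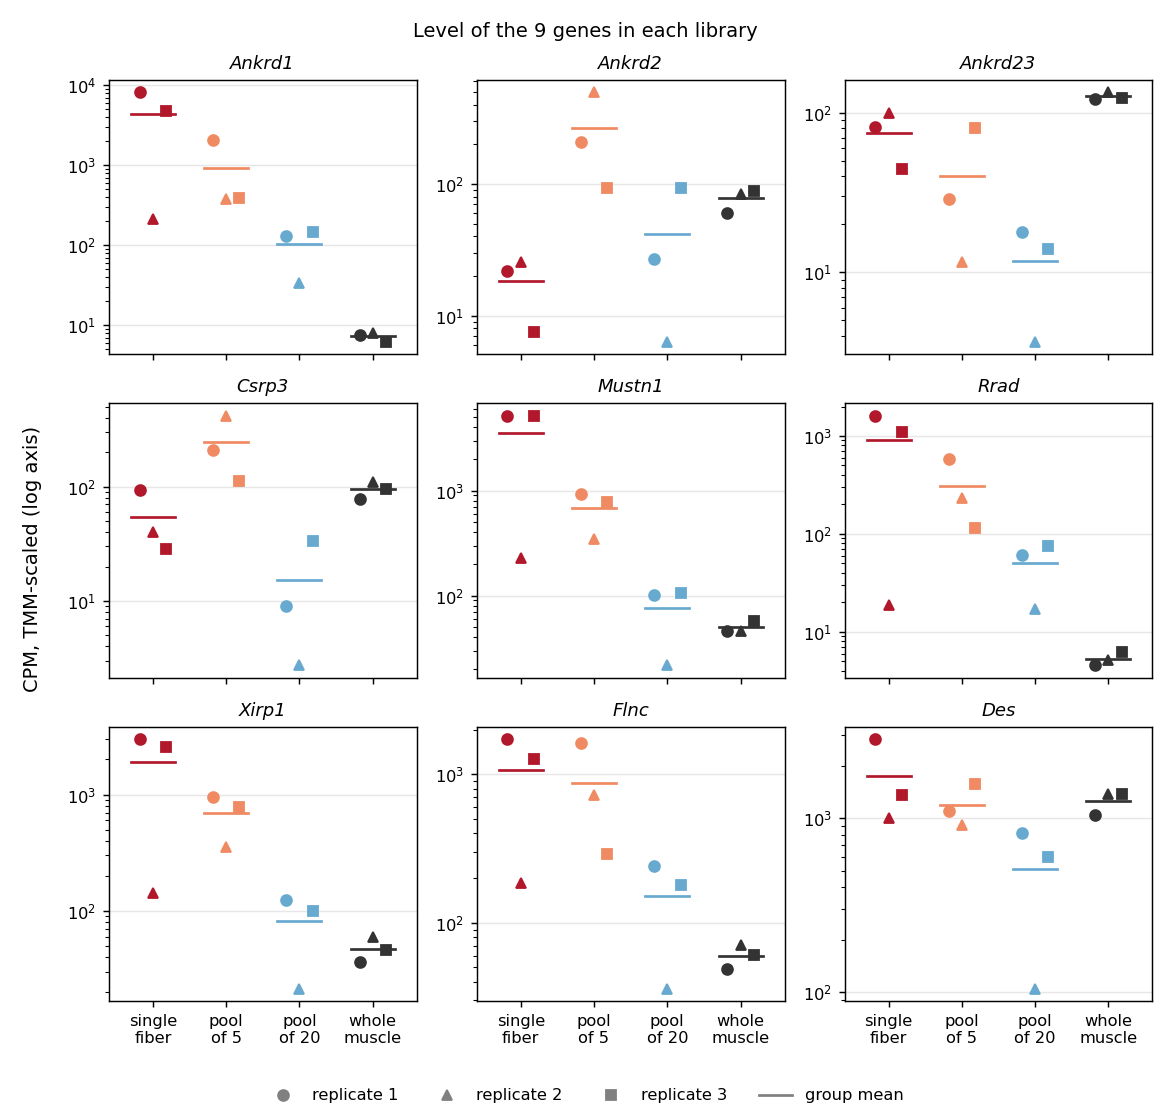
Level of the 9 genes in each of the 12 libraries, as TMM-scaled CPM on a log axis, by group on the horizontal axis; symbols mark the replicate number and horizontal lines the group mean. For Ankrd1 all 9 fiber libraries lie above the 3 whole muscle libraries, while Ankrd23 lies below them in every fiber library and Ankrd2 and Csrp3 peak in the pools of 5.

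The make-up of the ankyrin family differed between fibers and tissue. Per kilobase of exon, Ankrd1 gave 2.57%, 2.19% and 1.71% of the summed signal of the 3 genes in whole muscle, where Ankrd2 gave 52.7% to 61.6%. In single fibers 1 and 3 Ankrd1 gave 98.3% and 98.6%, and in single fiber 2 55.3%. Among the 5-fiber pools its share was 78.6%, 22.9% and 54.5%, and among the 20-fiber pools it was 60.1%, 62.4% and 36.8%. Over full exon lengths Ankrd1 thus led the family in 7 of the 9 fiber libraries. Ankrd2 led it in 5-fiber pool 2, 20-fiber pool 3 and whole muscle. All these shares, and which gene led, rest on the full exon length of Ankrd23, which the overlap with Gm42417 makes uncertain. If only the 588 bases outside the overlap were counted, Ankrd23 would take a larger share and the leading gene could change. The ratio of Ankrd1 to Ankrd2 does not use Ankrd23 or any scaling: per kilobase it was 147, 3.26 and 249 in single fibers, 0.301 to 3.89 in pools of 5, 0.620 to 2.06 in pools of 20, and 0.0278 to 0.0488 in whole muscle.

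**Figure D2:**
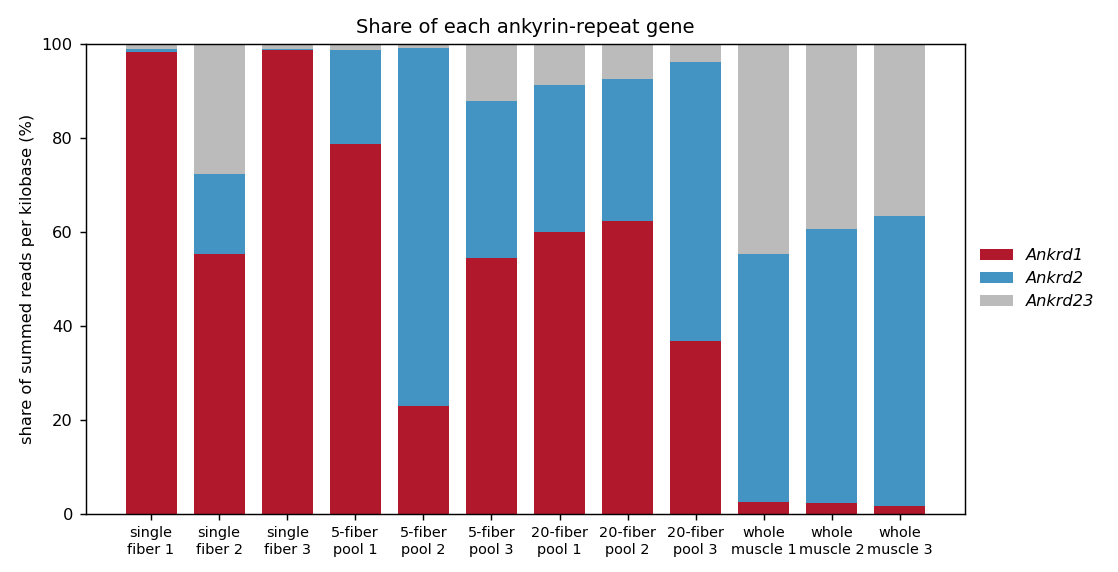
Share (%) of Ankrd1, Ankrd2 and Ankrd23 in their summed reads per kilobase, 1 stacked bar for each of the 12 libraries. All shares use the full exon length of Ankrd23, which its overlap with Gm42417 makes uncertain. Ankrd1 fills 98.3% and 98.6% of single fibers 1 and 3 but at most 2.57% of whole muscle, where Ankrd2 holds 52.7% to 61.6%.

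Mustn1 and Rrad followed Ankrd1 in the size of their difference between single fibers and whole muscle. Mustn1 stood at 46.4, 46.6 and 57.7 CPM in whole muscle, 102, 21.8 and 107 CPM in pools of 20, 923, 346 and 780.5 CPM in pools of 5, and 5129, 229 and 5175 CPM in single fibers. In CPM single fibers and pools of 5 lay wholly above whole muscle. The pools of 20 did not, since 20-fiber pool 2 lay under it. Rrad stood at 4.57, 5.14 and 6.21 CPM in whole muscle, 61.6, 17.0 and 74.5 CPM in pools of 20, 578, 233 and 114 CPM in pools of 5, and 1613, 18.8 and 1104 CPM in single fibers. All 9 fiber libraries exceeded whole muscle for Rrad, the lowest being 20-fiber pool 2. The log2 fold changes of Rrad against whole muscle were 7.41 (SE 1.45), 5.80 (SE 0.70) and 3.55 (SE 0.50) in single fibers, pools of 5 and pools of 20. Those of Mustn1 were 6.13 (SE 1.12), 3.68 (SE 0.47) and 0.90 (SE 0.54). Per kilobase, Mustn1 ranked 28 and Rrad 92 among protein-coding genes in single fibers, against 678 and 4715 in whole muscle.

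Xirp1 and Flnc, whose proteins bind each other at Z-discs under repair, were next in size. Xirp1 stood at 36.3, 59.4 and 46.1 CPM in whole muscle, 124, 21.6 and 101 CPM in pools of 20, 955, 355 and 782 CPM in pools of 5, and 2990.2, 142 and 2561 CPM in single fibers. Flnc stood at 48.5, 70.4 and 60.3 CPM in whole muscle, 239.5, 36.0 and 181 CPM in pools of 20, 1614, 730.5 and 291 CPM in pools of 5, and 1727, 187 and 1271 CPM in single fibers. For both genes 20-fiber pool 2 alone lay under whole muscle, and the single fibers and the pools of 5 overlapped each other. The log2 fold change of Xirp1 against whole muscle was 5.33 (SE 1.04) in single fibers, 3.81 (SE 0.49) in pools of 5 and 1.07 (SE 0.57) in pools of 20. That of Flnc was 4.14 (SE 0.77), 3.82 (SE 0.67) and 1.62 (SE 0.63).

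Csrp3, a LIM protein of the Z-disc that is high in slow fibers and heart, had its highest group mean in the pools of 5, as did Ankrd2. It stood at 77.6, 111 and 96.2 CPM in whole muscle, 93.0, 40.0 and 28.5 CPM in single fibers, 209.5, 418 and 112 CPM in pools of 5, and 8.96, 2.74 and 33.7 CPM in pools of 20. In CPM the pools of 5 lay above whole muscle, the pools of 20 below it, and the single fibers overlapped it. Per fast-fiber marker read, and per read without TMM factors, the pools of 5 overlapped whole muscle and the single fibers lay below it. The log2 fold changes were -0.88 (SE 0.42) in single fibers, 1.36 (SE 0.53) in pools of 5 and -2.37 (SE 0.66) in pools of 20. Des, the intermediate filament that ties Z-discs together, had the smallest ratio of highest to lowest CPM over the 12 libraries, 27.3, at 1038, 1377 and 1375 CPM in whole muscle, 2853, 999.9 and 1366 CPM in single fibers, 1103, 913 and 1568 CPM in pools of 5, and 821, 105 and 601 CPM in pools of 20. In CPM the pools of 20 lay below all other groups for Des, and the other groups overlapped. Per fast-fiber marker read, and per read without TMM factors, the pools of 20 lay below whole muscle but overlapped the single fibers and the pools of 5. The log2 fold change of Des against whole muscle was 0.42 (SE 0.41), -0.15 (SE 0.40) and -1.04 (SE 0.86) in single fibers, pools of 5 and pools of 20, and scaled to fast-fiber marker reads the first became -0.87.

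Slow-fiber markers are given beside Ankrd2 and Csrp3 because slow fibers are known to be rich in both. The 10 slow-fiber marker genes summed to 768 to 1443 CPM in whole muscle, 189 to 273 CPM in pools of 5, 37.0 to 123 CPM in pools of 20 and 42.4 to 80.0 CPM in single fibers. In isolated fibers against whole muscle 8 of the 10 were lower by edgeR and 0 were higher. Myh7, the slow myosin, was at 0 in single fibers 2 and 3 and in 5-fiber pool 3, and at most 5.77 CPM in any fiber library, against 42.3 to 124 CPM in whole muscle. Myl3, the slow light chain, was at 0.18, 21.6 and 96.2 CPM in the 3 pools of 5, where Ankrd2 was 206, 496 and 93.7 CPM. The part of slow fibers in either result was not tested.

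Counts over the set against whole muscle follow, as a description, since these contrasts were known when the genes were named. A gene is called at an edgeR quasi-likelihood adjusted p under 0.05. With all fibers against whole muscle, 5 of the 9 were called higher (7.46% of the 22110 genes tested) and 1 was called lower (7.78%). The 5 were Ankrd1, Rrad, Mustn1, Xirp1 and Flnc, with log2 fold changes of 6.70, 5.52, 3.51, 3.34 and 3.13, and the 1 lower was Ankrd23 at -1.94. Des, Ankrd2 and Csrp3 stood at -0.31, -0.39 and -0.69. The median over the 9 was 3.13, beside 0.40 over all genes. Leaving out whole muscle 2 gave 2 calls in place of 6, leaving out whole muscle 1 or 3 or 20-fiber pool 1 gave 3, and fitting 2 groups (all fibers, whole muscle) gave 2. Without both single fiber 2 and 5-fiber pool 3, 6 were called, and without the 5 pools with many receptor reads, 5. By library, 2 members (Ankrd1, Rrad) lay in all 9 fiber libraries above whole muscle, as did 3.13% of genes, and 1 (Ankrd23) lay below, as did 7.8%.

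Group by group, single fibers had 5 members called higher (13.9% of 14028 genes) and 1 lower (19.8%), Ankrd2. Without whole muscle 1 or 3 these 6 calls became 3. Pools of 5 had 5 called higher (4.63% of 14764 genes) and 0 lower (4.22%), and leaving out any 1 whole muscle library left 0, while leaving out 5-fiber pool 3 gave 8 calls in all. Pools of 20 had 3 called higher (30.3% of 16969 genes), namely Ankrd1, Rrad and Flnc, and 2 lower (13.5%), namely Csrp3 and Ankrd23. Without 20-fiber pool 2 the pools of 20 had 8 calls, while calls over all genes went from 7446 to 10843. The 3 comparisons share the whole muscle libraries. Ankrd1, Rrad and Flnc were called higher in all 3, as were 2.55% of the 13615 genes tested in each. Flnc lost its call under 6 of 13 alternatives in pools of 5 and under 8 of 13 in pools of 20, where its edgeR adjusted p was 0.0462. With TMM factors the log2 fold change of each of the 5 genes was greatest in single fibers and least in the pools of 20. For Flnc, pools of 5 against single fibers stood at only -0.23 (SE 0.90), and at 1.11 scaled to fast-fiber marker reads.

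**Figure D3:**
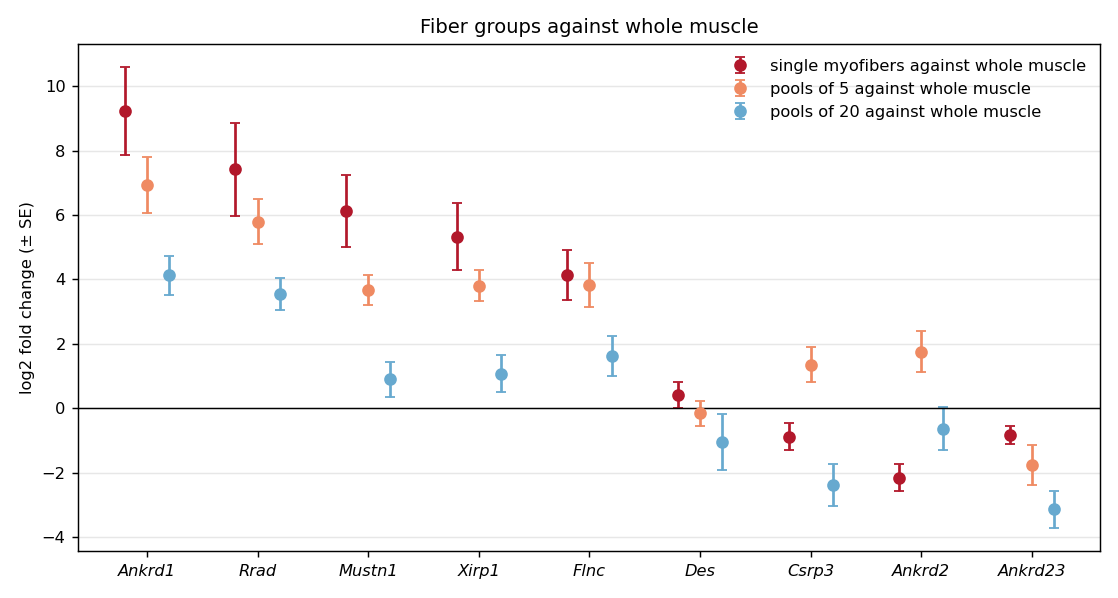
Log2 fold change (± SE, edgeR) of the 9 genes in single myofibers, pools of 5 and pools of 20, each against the same 3 whole muscle libraries. Ankrd1 runs from 9.23 through 6.94 to 4.12, Ankrd23 lies below 0 in all 3 groups, and Ankrd2 and Csrp3 lie above 0 only in the pools of 5.

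Between fiber groups, contrasts on which the genes were not named, the pools of 20 were first compared with single fibers. The genes were chosen with earlier results of these data known. The same fiber libraries enter those results, so the calls between fiber groups are not fully independent of the choice. Of the 9 genes, 6 were lower in the pools of 20 by edgeR, against 8.52% of 16978 genes called lower. Mustn1 had a log2 fold change of -5.24 (SE 1.26, edgeR adjusted p = 0.00746) and Ankrd1 of -5.10 (SE 1.31, edgeR adjusted p = 0.00944). Xirp1 was lower by -4.26 (SE 1.11, edgeR adjusted p = 0.00990), Rrad by -3.85 (SE 1.13, edgeR adjusted p = 0.0172) and Flnc by -2.53 (SE 0.89, edgeR adjusted p = 0.0388). Ankrd23 followed at -2.31 (SE 0.52, edgeR adjusted p = 0.00727). Csrp3 at -1.51, Des at -1.48 and Ankrd2 at 1.51 did not pass, with edgeR adjusted p of 0.0866, 0.184 and 0.0901. The median of all genes in this contrast was 0.74, so relative to it the lower members stand that much lower. Single fiber 2, at 213 CPM of Ankrd1, was the single fiber nearest to the pools of 20, which held up to 145 CPM. In counts per 1000000 reads without TMM factors, the libraries of the 2 groups overlapped for all of the 6 genes but Ankrd23.

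Some of these calls rest on single libraries, on the scaling and on the design. With the replicate number as a block none of the 6 was called, at edgeR adjusted p of 0.0891 to 0.189, and calls over all genes went from 6123 to 7. Without 20-fiber pool 2 Ankrd1, Mustn1 and Ankrd23 were called, while Xirp1, Flnc and Rrad had edgeR adjusted p of 0.0511, 0.0999 and 0.11. Without single fiber 2 all 6 were called, and Csrp3 too, with an edgeR adjusted p of 0.027. Flnc lost its call under 7 of 13 alternatives. Scaled to fast-fiber marker reads, Ankrd1 (-3.47), Mustn1 (-3.74), Xirp1 (-2.77) and Rrad (-2.23) stayed called lower and Ankrd2 (3.06) was called higher, whereas Flnc (-1.05) and Ankrd23 (-0.66) were not called and Csrp3 (0.09) and Des (0.03) changed sign. On that scale single fiber 2 went the other way, lying below every pool of 20 for Ankrd1, Mustn1, Xirp1, Rrad and Flnc. Per 10000 marker reads it held 7.19 of Ankrd1 and 0.637 of Rrad, against at least 11.5 and 5.41 in the pools of 20. Endothelial markers differed between these groups: the 9 genes summed to 1.95 to 6.34 CPM in single fibers and to 37.5 to 227 CPM in pools of 20, where 8 of the 9 were called higher, beside 27.5% of all genes. Of the genes tested in other marker lists, 7 of 10 smooth muscle and pericyte and 5 of 8 satellite cell genes were called higher. So were 4 of 6 Schwann cell, 3 of 5 tendon, 3 of 7 macrophage and 1 of 10 fibroblast genes tested. In the macrophage list 1 gene was called lower. Smooth muscle and pericyte genes summed to 171 to 260 CPM in single fibers, inside the 68.0 to 317 CPM of the pools of 20. Receptor reads were also higher in the pools of 20, as given above. Their part in the lower levels was not tested.

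Pools of 5 against single fibers gave few calls. By edgeR 0 of the 9 genes were called, as were 2 of 12700 genes (0.0157%). At an unadjusted p under 0.05, 3 members passed (8.91% of genes), and DESeq2 called 2 (3.33% of genes), Ankrd2 and Csrp3. Both lay in every pool of 5 above every single fiber, as did 9.02% of genes. Ankrd2 had the largest difference, with a log2 fold change of 4.02 (SE 0.82, edgeR adjusted p = 0.165). Csrp3 stood at 2.33 (SE 0.71, edgeR adjusted p = 0.358). Mustn1 at -2.41, Ankrd1 at -2.21, Rrad at -1.53 and Xirp1 at -1.48 overlapped between the groups, as did Ankrd23 at -0.93, Des at -0.53 and Flnc at -0.23. Scaled to fast-fiber marker reads, Des and Flnc turned positive, at 0.60 and 1.11. When both single fiber 2 and 5-fiber pool 3 were left out, 7 members were called, 5 of them lower (Ankrd1, Mustn1, Xirp1, Rrad, Ankrd23) and Ankrd2 and Csrp3 higher, and calls over all genes went from 2 to 3313. Those 2 libraries were known to stand apart before they were left out, and 2 libraries a group then remained.

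Pools of 20 against pools of 5 gave 0 calls by edgeR, for the members and for all 17113 genes (0%). At an unadjusted p under 0.05, 8 of the 9 members passed, all lower in the pools of 20, against 8.78% of genes. DESeq2 called 5 (1.05% of genes): Mustn1, Csrp3, Xirp1, Ankrd1 and Rrad. The log2 fold changes ran from -1.17 for Des to -3.98 for Csrp3, and edgeR adjusted p was 0.530 for all but Des at 0.595. Without 5-fiber pool 3, Csrp3 was called with an edgeR adjusted p of 0.0324. For 8 of the 9 genes the pools of 20 lay wholly below the pools of 5 in CPM, as did 7.98% of genes, the exception being Ankrd23. In reads per fast-fiber marker read this held for Mustn1 and Xirp1 alone.

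Scaled to the fast-fiber markers, the 3 pools of 20 lay nearer to one another than in CPM. Per 10000 such reads Ankrd1 stood at 11.5, 19.5 and 16.2, Mustn1 at 8.98, 12.8 and 11.9, Rrad at 5.41, 9.98 and 8.29, Xirp1 at 10.9, 12.7 and 11.2, and Flnc at 21.0, 21.2 and 20.1. 20-fiber pool 2, the lowest library in CPM, was the highest of the 3 for each of these genes. Whole muscle was at 0.540 to 0.864 for Ankrd1, 0.449 to 0.540 for Rrad, 4.07 to 5.35 for Mustn1, 4.01 to 5.20 for Xirp1 and 5.24 to 6.15 for Flnc. On this scale all 9 fiber libraries lay above whole muscle for Ankrd1, Rrad, Mustn1 and Flnc, and 8 did for Xirp1, the exception being single fiber 2 at 4.80, inside the whole muscle range.

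**Figure D4:**
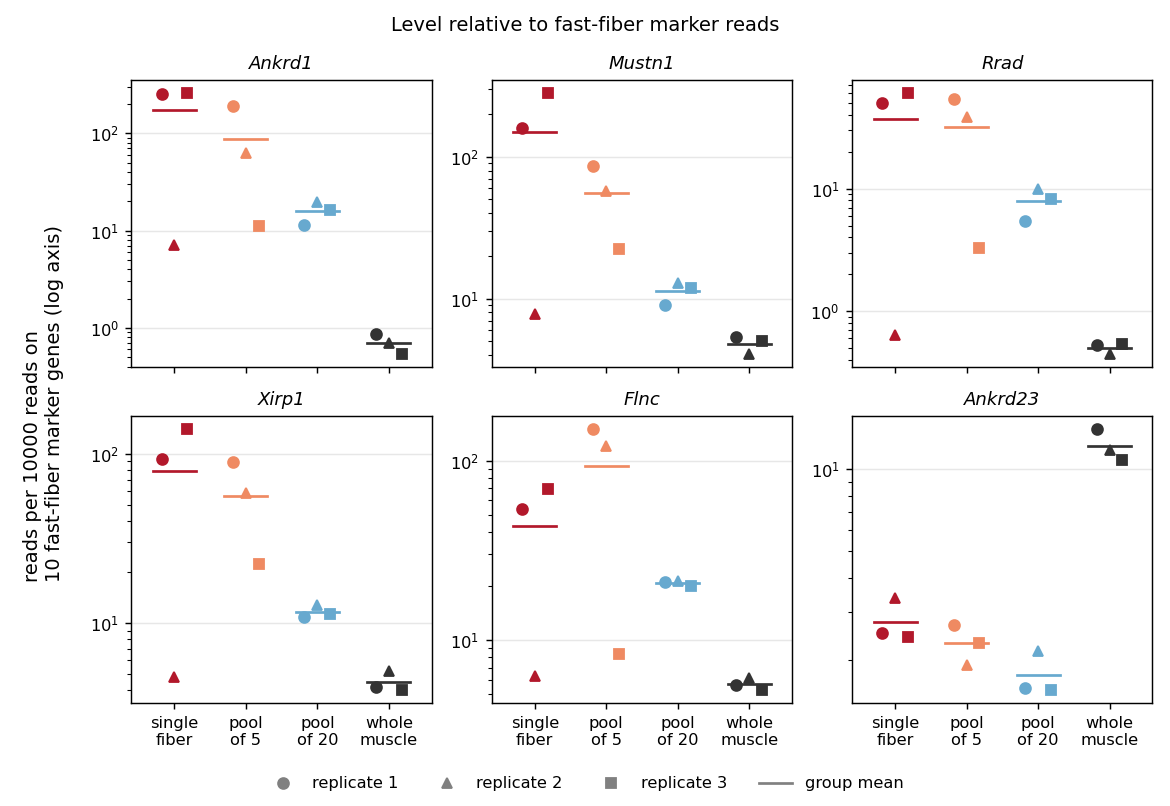
Reads of 6 genes per 10000 reads on the 10 fast-fiber marker genes (log axis) in each library, by group, with symbols for the replicate number and lines for the group mean. The pools of 20 sit close together, Flnc at 20.1 to 21.2, while single fiber 2 falls near whole muscle for Rrad (0.637) and Xirp1 (4.80).

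Among the 3 single fibers the members spread widely. Single fibers 1 and 3 held 38.5 and 22.4 times as much Ankrd1 as single fiber 2, and the 2 ratios ran from 58.7 to 85.7 for Rrad, from 22.4 to 22.6 for Mustn1, from 18.1 to 21.1 for Xirp1 and from 6.81 to 9.25 for Flnc. Among 6183 genes at a mean of 10 CPM or more, the excess of the other fibers over single fiber 2 put these 5 genes at percentiles from 97.8 to 99.8. The other 4 members lay at percentiles between 21.3 and 85.2, and Ankrd2 and Ankrd23 were higher in single fiber 2 than in single fibers 1 and 3. Relative to the whole muscle mean in CPM, single fiber 2 was still 29.4 times higher for Ankrd1 and 3.00 to 4.55 times for Rrad, Mustn1, Xirp1 and Flnc. Without TMM factors these 4 stood closer to whole muscle. Per 1000000 reads Rrad was at 10.4 against 7.27 to 8.81 in whole muscle, Mustn1 at 127 against 65.9 to 81.8, and Flnc at 103 against 77.4 to 99.6. Xirp1, at 78.6, lay inside the whole muscle range of 58.0 to 84.1. The macrophage marker sum was 20.2 CPM in single fiber 2 against 280 and 285 CPM in the other 2, of which Cd68 alone gave 1.49, 244 and 266 CPM, while C1qa was at 0 in all 3. 5-fiber pool 3 also held less Rrad and Flnc than pools 1 and 2, which had 2.04 to 5.05 times as much Rrad and 2.51 to 5.54 times as much Flnc in CPM. Its Mustn1 and Xirp1 lay between those of the other 2 pools, and its Ankrd1 was 389 CPM beside 379 CPM in pool 2. Per fast-fiber marker read it was the lowest of the 3 pools for all 5 genes, the others holding 5.60 to 17.1 times as much Ankrd1, 11.7 to 16.4 times as much Rrad, 14.4 to 18.0 times as much Flnc, 2.55 to 3.85 times as much Mustn1 and 2.61 to 3.97 times as much Xirp1.

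Across the 9 fiber libraries the 5 genes called higher in fibers varied together. Their 10 pairs had a Pearson r of log2 CPM between 0.89 and 0.99 and a Spearman rho between 0.88 and 0.98. Without the 2 libraries farthest from the median of 1 gene of the pair, r lay between 0.81 and 0.98. Ankrd2 and Csrp3 had an r of 0.81, which was 0.60 without the 2 libraries farthest from the median of Ankrd2. Ankrd1 and Ankrd2 had an r of 0.04, which was 0.78 without the 2 libraries farthest from the median of Ankrd1, and Ankrd1 and Csrp3 had an r of 0.55, which became 0.85. The low r of Ankrd1 with Ankrd2 therefore rests on those 2 libraries. With Mustn1, Rrad, Xirp1 and Flnc, Ankrd2 had an r of 0.03 to 0.33. This r was -0.10 to 0.04 without the 2 libraries farthest from the median of Ankrd2. Those were 5-fiber pools 1 and 2, whereas single fibers 1 and 3 were left out for Ankrd1 with Ankrd2, so the changes cannot be compared. Ankrd23 had its highest r with Des, at 0.84. These are descriptions over 36 pairs in 9 libraries that share their depth, scaling factor and group, so no p is given. In the 7 libraries without single fiber 2 and 5-fiber pool 3, Ankrd1 had an r of 0.99 with Mustn1, Rrad and Xirp1 and of 0.94 with Ankrd23, where it was 0.62 over all 9.

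**Figure D5:**
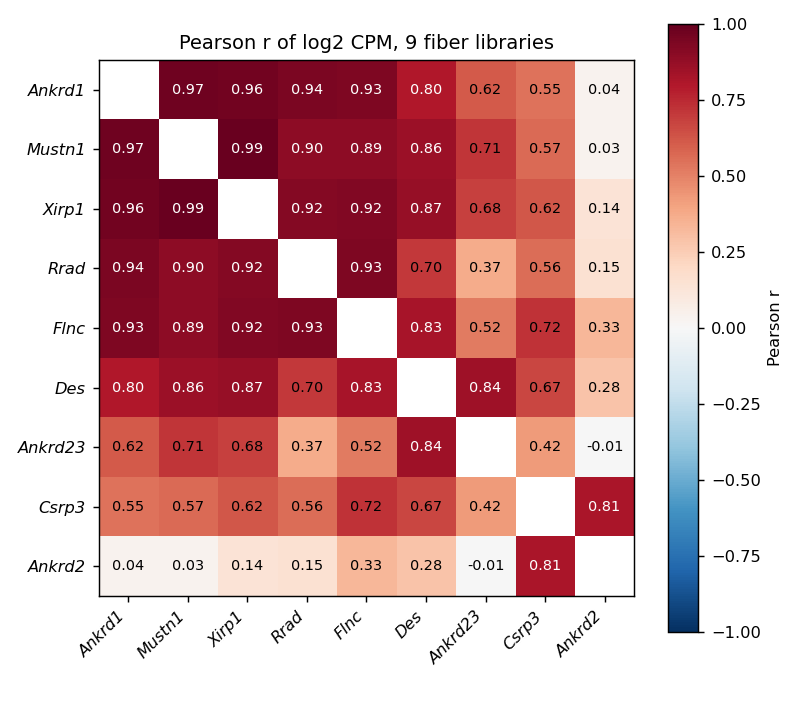
Pearson r of log2 CPM between each pair of the 9 genes over the 9 fiber libraries, from -1 to 1 by colour and printed in each cell. The block of Ankrd1, Mustn1, Xirp1, Rrad and Flnc runs from 0.89 to 0.99, while Ankrd2 is high with Csrp3 (0.81) and near 0 with Ankrd1 (0.04). The r with Csrp3 becomes 0.60 without the 2 libraries farthest from the median of Ankrd2. That with Ankrd1 becomes 0.78 without the 2 farthest from the median of Ankrd1.

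The genes whose pattern was most like Ankrd1, among 5772 protein-coding genes at a mean of 10 CPM or more, were Usp28 (r = 0.987), Gna13 (0.987), Ehd4 (0.985), Alpk2 (0.984) and Tubb6 (0.981). Those most like Rrad were Zbtb11 (r = 0.992), 2900026A02Rik (0.990), Frmd6 (0.984), Naf1 (0.983) and Dusp5 (0.983). All values are Pearson r of log2 CPM over the 9 fiber libraries. Whole muscle was not used for the ranking, and there Dusp5 stood at 1.16 CPM against 125 CPM in single fibers, and Usp28 at 40.8 against 349 CPM.

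Promoters are printed for 4 members, 3 of the 5 called higher in fibers and Ankrd2, which was not, to show a motif that TEAD factors of the YAP pathway are known to bind. The 300-base windows are from RefSeq on GRCm38.p6, from 250 bases before to 50 after an annotated start, and 7 of the 9 genes had 1 or more. Rrad and Xirp1, also called higher in fibers, had none. Capitals mark each match to the MCAT motif CATTCC, which reads GGAATG on the other strand.
Ankrd1, chr19:36119795-36120094, minus strand: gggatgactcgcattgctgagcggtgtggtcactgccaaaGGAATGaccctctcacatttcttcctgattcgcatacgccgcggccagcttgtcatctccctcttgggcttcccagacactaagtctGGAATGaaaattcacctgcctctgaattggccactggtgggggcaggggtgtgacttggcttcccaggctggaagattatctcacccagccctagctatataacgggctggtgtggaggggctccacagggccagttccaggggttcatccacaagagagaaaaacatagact
Mustn1, chr14:30879007-30879306, plus strand: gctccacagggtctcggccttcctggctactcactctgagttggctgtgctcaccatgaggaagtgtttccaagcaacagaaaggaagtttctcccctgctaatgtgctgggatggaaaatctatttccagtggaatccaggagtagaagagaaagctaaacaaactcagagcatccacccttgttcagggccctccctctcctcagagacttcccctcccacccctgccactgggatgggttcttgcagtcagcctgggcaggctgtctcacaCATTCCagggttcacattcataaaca
Flnc, chr6:29433006-29433305, plus strand: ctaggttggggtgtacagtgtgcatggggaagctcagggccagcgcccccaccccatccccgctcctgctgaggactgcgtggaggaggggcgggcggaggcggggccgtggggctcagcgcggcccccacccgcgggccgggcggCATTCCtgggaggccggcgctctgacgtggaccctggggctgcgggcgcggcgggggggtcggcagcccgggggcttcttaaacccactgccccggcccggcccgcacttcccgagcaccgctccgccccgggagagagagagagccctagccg
Ankrd2, chr19:42035777-42036076, plus strand: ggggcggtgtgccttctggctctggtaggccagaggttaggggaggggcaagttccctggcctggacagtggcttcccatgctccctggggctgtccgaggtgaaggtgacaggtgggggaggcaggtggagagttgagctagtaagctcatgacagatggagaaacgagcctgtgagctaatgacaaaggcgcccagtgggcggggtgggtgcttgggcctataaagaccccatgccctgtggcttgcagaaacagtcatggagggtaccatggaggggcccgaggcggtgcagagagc
Ankrd1 held 2 matches, at -210 and -123 from the start, Mustn1 held 1 at 24, and Flnc held 1 at -104, while Ankrd2 held 0. Searched on both strands, the motif was present in 4 of the 7 genes with a window, and in 14.7% of 32851 mouse promoter windows of the same length. The gene with a match that is not printed was Ankrd23, the member called lower in fibers. It held the motif in each of its windows, at -120 and 36. The E-box CANNTG, none of whose matches overlapped an MCAT match in the printed windows, was present in 5 of the 7 and in 72.3% of windows. TATAAA was found in Ankrd2 alone, at -29, and in 13.6% of windows. The CArG box, the MEF2 box and the AP-1 motif TGANTCA were found in 0 of the 7, beside 1.63%, 3.19% and 7.81% of windows. A match describes letters in a window and is not a measured binding site.

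Related genes were read from 5 lists in isolated fibers against whole muscle, with calls by edgeR. These lists were drawn up with earlier results of the data known, and the median over all genes was 0.40 on the log2 scale. Of 27 Z-disc and titin partners, 2 were called higher and 0 lower, beside 7.46% and 7.78% of all genes, with a median log2 fold change of 0.55. In single fibers alone 15 of the 27 were called higher and 2 lower, beside 13.9% and 19.8% of genes, with a median of 1.22 against -0.12 over all genes, and 6 of the 10 fast-fiber markers were called higher there too. The 15 included Ttn, the titin gene, at 2.09 (SE 0.31), Myoz3 at 2.12 (SE 0.28) and Cavin4 at 2.30 (SE 0.39), while Myoz2 (-4.11) and Fhl1 (-2.55) were the 2 lower. These genes were named after their values in single fibers were seen. With all fibers the 2 called were the LIM gene Fhl3 (2.98, SE 0.65, edgeR adjusted p = 0.0058) and the nebulette gene Nebl (3.88, SE 1.14, edgeR adjusted p = 0.0315). Nebl was at 0.251 CPM in whole muscle and at most 6.27 CPM as a fiber group mean. The partners with the highest level per kilobase were Actn3 at 0.41, Myoz1 at -0.35 and Tcap at 1.08, none of them called with all fibers. Tcap caps the titin filament and Myoz1 binds filamin C at the Z-disc.

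Among paralogs of the members, 11 of 12 were tested, and 0 were called higher and 5 lower, beside 7.46% and 7.78% of all genes, with a median of -1.15. The largest were Csrp1 (-4.39), the smooth muscle relative of Csrp3, Flna (-3.07), the widely expressed relative of Flnc, and Sync (-2.90), a desmin partner. Xirp2, the paralog of Xirp1, stood at 5209 CPM in single fibers and 446 CPM in whole muscle (1.87, edgeR adjusted p = 0.0986). Gem, the relative of Rrad, stood at 57.0 and 5.69 CPM (1.80, edgeR adjusted p = 0.0750). Neither passed with all fibers, but in single fibers alone both were called higher, Xirp2 at 3.51 (SE 0.38, edgeR adjusted p = 0.00113) and Gem at 3.34 (SE 0.99, edgeR adjusted p = 0.0350). They were the only 2 of the 11 called higher there, beside 13.9% of all genes. Another 5 were called lower (Csrp1, Flna, Rem1, Sync and Vim), beside 19.8% of all genes. The median of the list there was -1.78, against -0.12 over all genes. Csrp1 and Flna are also expressed by stromal cells, and fibroblast markers summed to 11.9 to 596 CPM in fibers against 4143 to 4653 CPM in whole muscle, 9 of 10 called lower. The part of those cells in the lower paralogs was not tested.

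Of 25 YAP and TEAD targets and factors, 2 were called higher and 1 lower, beside 7.46% and 7.78% of all genes, with a median of 0.25. Tead1, a TEAD factor, was higher at 2.13 (SE 0.56, edgeR adjusted p = 0.0177), and so was Vgll2, a skeletal muscle cofactor of TEAD, at 1.69 (SE 0.54, edgeR adjusted p = 0.0415). Axl, a receptor kinase, was lower at -2.88. Amotl1 at 1.24 and Ccn1 at 1.31 were not called. Of 20 SRF and MRTF targets and factors, 0 were called higher and 4 lower, with a median of -0.68. Among the 4 were Cnn1 (-3.79), Cnn2 (-3.54) and Tagln2 (-2.40), known from smooth muscle and other non-fiber cells, while the actins Acta1, Actb and Actc1 stood at 0.57, -0.62 and -0.39 without a call. Of 18 costamere and focal adhesion genes, 15 were tested, with 2 called higher, 2 lower and a median of 0.18. Dst (2.20) and Ank3 (1.61), both linkers of the cytoskeleton, were higher, and the adhesion gene Lims2 (-3.29) was lower. Dmd at 1.51, Plec at 0.72 and Itgb1 at -0.77 were not called. In single fibers alone 13.9% of all genes were called higher and 19.8% lower. There the YAP and TEAD list had 5 of 25 called higher and 6 lower. The SRF and MRTF list had 1 and 8 of 19 tested, and the costamere list 6 and 4 of 15 tested.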

How the data were processed

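Gene counts of 12 libraries were used. Per the submitters' processing notes, the authors worked on GRCm38 (mm10) with HISAT2, SAMtools and featureCounts; versions, strand, multi-mapping and annotation release are not given in the sources used here. The deposited values are raw read counts per Ensembl gene. Symbols, coordinates and exon lengths came from GENCODE vM21, matched by 55480 of 55573 identifiers. edgeR 4.0.16 in R 4.3.3 (TMM factors, filterByExpr, glmQLFit, glmQLFTest, Benjamini-Hochberg adjusted p under 0.05 over all genes tested) was fitted to the 6 libraries of each pair of groups, and to all 12 for isolated fibers against whole muscle. All 7 fits were run on simulated counts with the same dispersion for every gene and library. That check does not cover the wider spread between the fiber libraries. Log2 CPM used an offset of 0.5. Alternatives were RLE and upper-quartile factors, no low-count filter, DESeq2 1.42.0, a replicate block, single libraries left out, and pooled fits; scaling to fast-fiber marker reads was added after seeing the data. The 9 genes and all lists were chosen with earlier results of these data known. Besides the 9 genes, the text names, for each list, the 3 members highest per kilobase and up to 3 called members with the largest change, plus the 5 genes most like Ankrd1 and Rrad; markers of other cells were named after their values were seen. No 2 libraries of a group were near copies.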

Additional observations from a re-analysis of the deposited data

Results flagged for a closer look

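In the pools of 20 against single fibers 6 members differed between the fiber groups by edgeR with TMM factors. The log2 fold changes were -5.24 for Mustn1, -5.10 for Ankrd1, -4.26 for Xirp1, -3.85 for Rrad, -2.53 for Flnc and -2.31 for Ankrd23. With the replicate number as a block none of the 6 was called. Scaled to fast-fiber marker reads, Flnc and Ankrd23 were not called. Per read without TMM factors, the libraries of both groups overlapped for all of the 6 but Ankrd23. Groups of 3 were not tested for single outlying libraries.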

How the results depend on the processing

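Over all genes, calls in isolated fibers against whole muscle went from 3370 to 6411 with DESeq2, 8587 without both single fiber 2 and 5-fiber pool 3, 950 scaled to fast-fiber marker reads and 596 with 2 groups, where members called were 2 of 6. In single fibers against whole muscle they went from 4716 to 7194 scaled to fast-fiber marker reads and 2854 in a fit on all 12 libraries. In pools of 5 against whole muscle they went from 1307 to 126 on that scale, 2535 with no low-count filter and 3094 with DESeq2, where 8 members were called, as in pools of 20 against whole muscle scaled to fast-fiber marker reads. With no low-count filter the pools of 20 had 23388 calls against whole muscle (7446 with it) and 15348 against single fibers (6123 with it). Pools of 5 against single fibers gave 9 calls on the fast-fiber scale, 768 with no low-count filter (2 members), 423 with DESeq2 (2 members), 3313 without both single fiber 2 and 5-fiber pool 3 (7 members) and 755 in a fit on all 12 libraries (1 member). Pools of 20 against pools of 5 gave 6 with no low-count filter and 179 with DESeq2 (5 members). The causes were not tested.

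Leaving out 1 library at a time, calls over all genes ranged from 1193 to 7271 (members 2 to 6) in isolated fibers, 1540 to 7617 (3 to 7) in single fibers, 7 to 7920 (0 to 8) in pools of 5 and 6605 to 13512 (4 to 8) in pools of 20, each against whole muscle. They ranged from 0 to 833 (0 to 2) in pools of 5 and 3931 to 10714 (3 to 7) in pools of 20 against single fibers, and 0 to 86 (0 to 1) in pools of 20 against pools of 5. A group left with 1 library fewer was assumed to vary like the others in the fit.

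Libraries with the same replicate number correlated at -0.40 to 0.46 over 18 pairs, so the numbers were not taken to pair them. With a replicate block, pools of 20 against single fibers gave 7 calls and 0 members, the 6 lost having edgeR adjusted p of 0.0891 to 0.189. The replicate block gave 3132 calls in single fibers and 231 in pools of 5 against whole muscle, 0 in pools of 5 against single fibers and 1 in pools of 20 against pools of 5.

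Of 900 values of single members under alternatives, 766 kept direction and side of the threshold, 68 lost a call, 51 gained one and 15 changed sign, none of them called. In isolated fibers Des became 0.21 without the 5 pools with many receptor reads, and Ankrd2 0.49 and Csrp3 0.15 with 2 groups. Des in single fibers became -0.87 scaled to fast-fiber marker reads and ran from -0.13 to 0.72 leaving out 1 library at a time (-0.13 without single fiber 1), and in pools of 5 0.0093 with RLE factors, 0.0094 with DESeq2 and ran from -0.32 to 0.017 (0.017 without 5-fiber pool 2). Flnc in pools of 5 against single fibers became 0.056 with upper-quartile factors, 1.11 on the fast-fiber scale, 0.038 without single fiber 1 and 0.14 without 5-fiber pool 3, its range being -0.88 to 0.14, and Des 0.60 on the fast-fiber scale. In pools of 20 against single fibers Csrp3 became 0.091 and Des 0.025 on that scale. The median of all genes in isolated fibers was 0.40 with TMM, 0.56 with RLE and 0.69 with upper-quartile factors, and in pools of 20 against single fibers it went from 0.74 to 2.79 on the fast-fiber scale. Depth limits Csrp3 in 20-fiber pool 2, at 38 reads, Ankrd23 in the same library, at 51, and Rrad in whole muscle 1, at 59. Leaving out both libraries that stand apart equals leaving out 1 where a fit holds only 1 of them.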
